A study of Sporobolus alterniflorus and Setaria viridis with 12 samples.

Results

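The genes described here are those with higher transcript levels under salt in mature leaves of both grasses of the series. These are Setaria viridis, a weedy annual that serves as a model for C4 photosynthesis, and the cordgrass Spartina alterniflora, named Sporobolus alterniflorus in the labels, which grows in salt marshes. A gene was taken when its lowest salt value plus 1 was at least 2 times its highest control value plus 1, in each species separately. Of the 15218 genes in the table, 82 met this rule, which is 0.539%. They were chosen by their own salt and control values in all 12 libraries, so their salt effects are given below as descriptions. Counts of genes called for those effects stand beside the share called in the whole table and support nothing.

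RNA was sequenced from 3 libraries each of S. viridis under salt, S. viridis controls, S. alterniflora under salt and S. alterniflora controls. The salt was NaCl, given in hydroponic culture, and the labels name no strain, accession or transgene. The treatment protocol states 250 mM for S. viridis, where the table's headings have the number 50. For S. alterniflora it states 50 mM, where the headings have 250. The doses are therefore uncertain, and species and dose cannot be told apart. If the species prefixes in the headings were exchanged, each value given here for one grass would belong to the other. Nothing in the labels says that the libraries of a group came from different plants. The p-values below therefore refer to the spread among libraries, part or all of which may be technical. Libraries are called A, B and C after their headings. A letter does not link libraries of different groups.

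Salt reaches a leaf both as a shortage of water and as an excess of sodium and chloride. Plants are known to answer with abscisic acid signalling, closure of stomata, synthesis of compatible solutes and protective proteins, and transport of sodium out of the cytosol or into the vacuole. C4 grasses of salt marshes are also known for excreting salt through leaf glands. The table pairs 0 of its IDs with a gene name, so none of these functions can be assigned to the 82 genes, and the labelled tissue could not be checked against leaf markers. Genes are given by their Setaria IDs and grouped by their levels.

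Values are FPKM, in which fragments are divided by gene length and by library size, a scale on which levels of different genes can be set side by side. Total FPKM was 510410 to 915944 per library, and 10472 to 11276 genes reached 1 FPKM. The totals were 510410 to 542488 in S. viridis salt libraries, 615049 to 631719 in its controls and 666702 to 915944 in S. alterniflora. They thus differed with species and, in S. viridis, with salt. FPKM keeps no read total, so the number of reads behind a value is unknown. Differences are on the log2(FPKM + 1) scale, which understates changes of low genes. Whether fewer cells of a type or less RNA per cell lies behind a lower value cannot be told apart in whole leaves.

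The condition for S. viridis was met by 1325 genes, or 8.71% of the table, and that for S. alterniflora by 216 genes, or 1.42%, the 82 shared genes included in both. The 82 shared genes made up 6.19% of the S. viridis list and 38% of the S. alterniflora list. Near the threshold the rule divides genes with similar values. In S. viridis the nearest member was Sevir.5G448300, with 78.58, 46.05 and 55 FPKM in salt libraries A to C, against 20.05, 22.23 and 19.5 FPKM in controls, a ratio of 2.03 by the rule. The nearest gene left out there, Sevir.7G175300, had 29.94, 9.08 and 45.05 FPKM under salt, against 4.09, 1.68 and 2.14 FPKM in controls, a ratio of 1.98. Both genes thus had salt values clear of their controls. In S. alterniflora the nearest member was Sevir.5G086900, with 7.03, 8.46 and 6.13 FPKM under salt, against 2.51, 1.83 and 0.72 FPKM in controls, a ratio of 2.03. The nearest gene left out was Sevir.1G320000, with 54.96, 51.17 and 73.42 FPKM under salt, against 17.21, 25.15 and 16.26 FPKM in controls, a ratio of 1.995. A rule of 3 times kept 32 genes and one of 4 times kept 14.

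**Figure D1:**
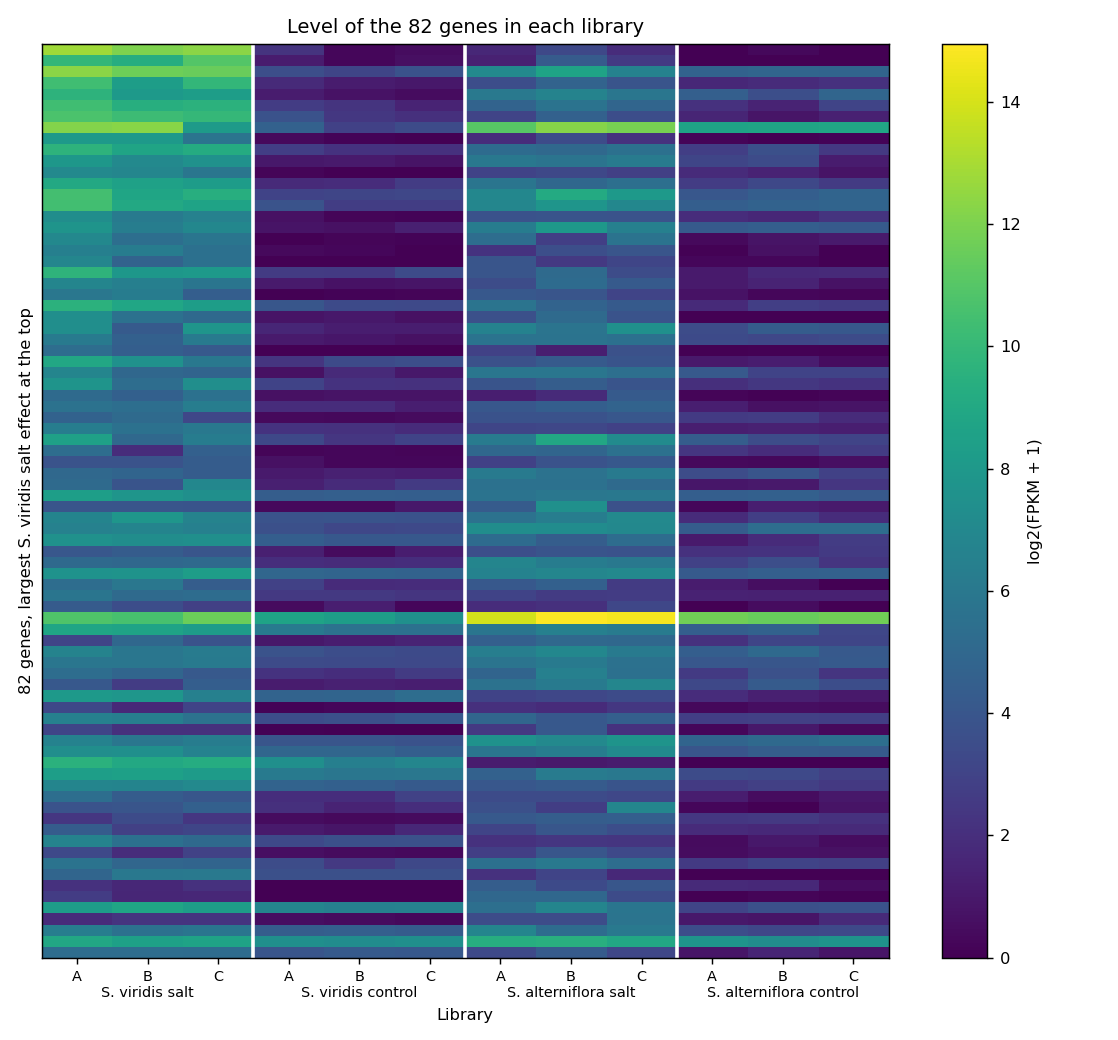
Level of each of the 82 genes (rows, ordered by their S. viridis salt effect) in the 12 libraries (columns, 3 per group), as log2(FPKM + 1) on a colour scale from dark (0) to yellow (highest). Within each species, salt libraries are brighter than the controls of that species in every row, as the rule requires. The brightest row in S. alterniflora, Sevir.5G101000, reached 31523.89 FPKM in salt library B.

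In S. viridis the 82 genes were low or moderate in controls and mostly abundant under salt. Their group means had a median of 76.3 FPKM under salt (2.96 to 5502 FPKM) and of 3.02 FPKM in controls (0 to 299.4 FPKM). For comparison, the median over all genes of the table was 5.13 FPKM under salt and 5.14 FPKM in controls. Under salt 36 of the genes averaged 100 FPKM or more, against 3 in controls, and 28 averaged under 1 FPKM in controls. Ranked among all genes, the median member stood at percentile 91.9 under salt and at percentile 40.6 in controls. The salt effect had a median of 3.37 (log2), about 10.3-fold on the FPKM + 1 scale, with quartiles of 2.40 and 5.64, beside a median of 0 over all genes. With 0.1 added in place of 1, the median was 4.28 (log2).

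The 2 largest effects in S. viridis came from genes that were close to silent in its controls. Sevir.9G447600 had 7141.27, 4179.62 and 5186.3 FPKM under salt, against 3.72, 0.2 and 0.42 FPKM in controls, a salt effect of 11.39 ± 0.53 (log2 ± SE). Sevir.8G121200 had 939.81, 639.11 and 1962.86 FPKM under salt, against 1.23, 0.18 and 0.5 FPKM in controls, an effect of 9.39 ± 0.44. Every salt library of these genes exceeded every control by over 2 orders of magnitude. In S. alterniflora both genes stayed low. Sevir.9G447600 had 2.14, 8.27 and 2.69 FPKM there under salt, against 0, 0.23 and 0 FPKM in controls. Sevir.8G121200 had 1.54, 18.61 and 4.85 FPKM under salt and was listed at 0 in all 3 controls. The highest S. alterniflora salt library of each gene was B.

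In S. alterniflora the median level of the 82 genes was close to that of S. viridis in controls and lower under salt. Their group means had a median of 26.3 FPKM under salt (1.15 to 24733 FPKM) and of 3.68 FPKM in controls (0 to 3147 FPKM), where the median over all genes was 4.26 FPKM under salt and 3.78 FPKM in controls. Under salt 12 genes averaged 100 FPKM or more, against 3 in controls. The median member stood at percentile 84.3 under salt and at percentile 49.4 in controls. The salt effect had a median of 2.52 (log2), about 5.73-fold on the FPKM + 1 scale, with quartiles of 2.05 and 2.99, beside a median of 0.06 over all genes. Effects of at least 3 were reached by 49 genes in S. viridis and by 19 in S. alterniflora, and effects of at least 6 by 17 in S. viridis and 0 in S. alterniflora.

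The 2 largest effects in S. alterniflora belonged to genes of modest level. Sevir.3G173400 had 5.37, 2.02 and 2.12 FPKM under salt in S. viridis and was listed at 0 in all its controls. In S. alterniflora it had 30.24, 30.95 and 9.74 FPKM under salt, against 0, 0.14 and 0.07 FPKM in controls, an effect of 4.37 ± 0.45 (log2 ± SE). Salt library A was the highest of its group in S. viridis, and library C the lowest in S. alterniflora. Sevir.5G399700 had 14.56, 14.25 and 13.46 FPKM under salt in S. viridis, against 0.3, 0.31 and 0.96 FPKM in controls, with salt values close together. In S. alterniflora it had 18.83, 182.38 and 11.83 FPKM under salt, against 0.19, 1.38 and 1.12 FPKM in controls, an effect of 4.31 ± 0.92. There its level in library B was far above the other salt libraries, and all 3 exceeded the controls.

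Fitted across the whole table with limma (Benjamini-Hochberg adjusted p under 0.05), 82 of 82 genes were called higher under salt in S. viridis, where 52.5% of tested genes were called and 25.4% were called higher. In S. alterniflora 63 of the 81 tested were called, beside 1.62% of tested genes called and 1.43% called higher. The rule used these contrasts, so nothing is read from the counts. The S. alterniflora count fell when single libraries were left out. It was 0 without control library A, 12 without salt library C and 18 without control library C. It was 20 without control library B, 37 without salt library A and 46 without salt library B. Calls over the whole table fell as well, from 184 to 0, 35, 49, 67, 116 and 154 in the same order. Every member tested kept an unadjusted limma p under 0.05 in each of these fits (81 of 81, or 80 of 80 without salt library C).

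**Figure D2:**
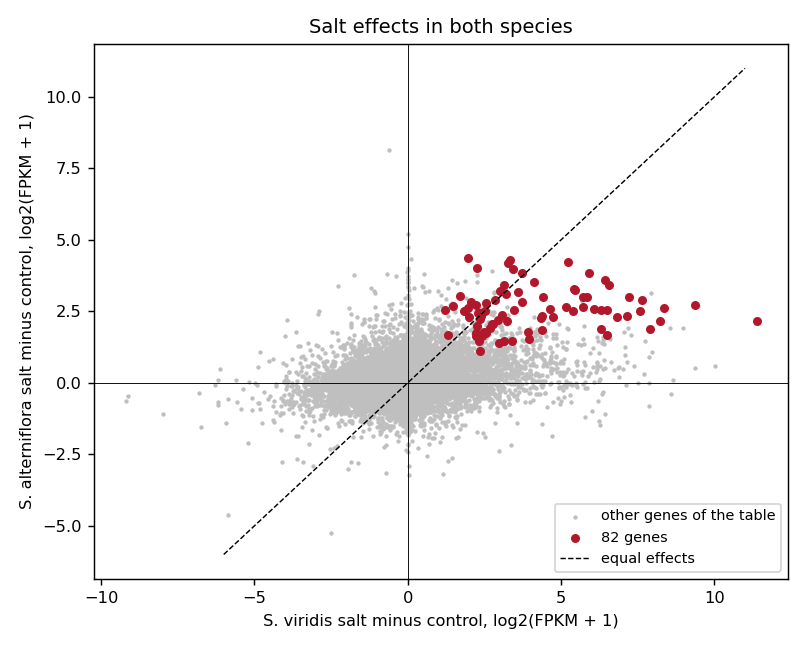
Salt minus control, as the difference of mean log2(FPKM + 1) values, in S. viridis (x axis) and S. alterniflora (y axis), for the 82 genes (red) and the other genes of the table (grey), with a dashed line of equal effects. The red points lie in the upper right by construction, and 61 of the 82 lie below the line, with a larger effect in S. viridis.

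The size of the response differed between the grasses for many of the genes. The effect was larger in S. viridis for 61 and larger in S. alterniflora for 21. It was larger in S. viridis by at least 1 (log2) for 39 genes, and the species were within 1 of each other for 38. The median difference, S. viridis minus S. alterniflora, was 0.87, beside -0.11 over all genes. In the fit over all 12 libraries limma called this difference for 33 of 82 genes, 31 with the larger effect in S. viridis, beside 24.2% of tested genes called, 10.7% higher and 13.4% lower. The difference is made of the contrasts that chose the genes, so these counts too are descriptions. Across the 82 genes the sizes of the effects were hardly related. Pearson's r was 0.10 and Spearman's rho 0.18, which describe genes from shared libraries over a range that the rule truncates.

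The effect was larger in S. alterniflora by at least 1 (log2) for 5 genes, named here after their values were seen: Sevir.3G173400, Sevir.7G144000, Sevir.5G288200, Sevir.9G374900 and Sevir.5G448300. Limma called the difference for the first and the fourth of these, and the call of the fourth was lost when most single libraries were left out. Sevir.9G374900 had 38.85, 38.77 and 38.12 FPKM under salt in S. viridis, against 14.14, 17.54 and 16.46 FPKM in controls. In S. alterniflora it had 8.97, 18.88 and 8.09 FPKM under salt, against 0.79, 1.88 and 0.81 FPKM in controls. The gene was thus higher in S. viridis in both conditions while its salt effect was smaller there. Sevir.7G144000 had 11.33, 5.61 and 115.36 FPKM under salt in S. alterniflora, against 0.2, 0.04 and 0.76 FPKM in controls, so that library C alone carried the high mean.

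Some of the genes were listed at 0 in every control of a species, and no fold is given for them there. In S. viridis these were 3 genes, Sevir.3G173400, Sevir.7G224700 and Sevir.9G178400, named after their values were seen. Sevir.9G178400 had 116.69, 25.57 and 45.6 FPKM under salt in S. viridis. In S. alterniflora it had 14.32, 4.53 and 7.63 FPKM under salt, against 0.2, 0.19 and 0.03 FPKM in controls. It was thus near or at 0 without salt in both grasses. In S. alterniflora the genes listed at 0 in all controls were 4, Sevir.1G076900, Sevir.7G123400, Sevir.8G121200 and Sevir.9G556200. Sevir.1G076900 had 168.62, 47.12 and 33.97 FPKM under salt in S. viridis, against 0.71, 0.98 and 0.59 FPKM in controls. In S. alterniflora it had 11.58, 35.18 and 13.18 FPKM under salt.

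**Figure D3:**
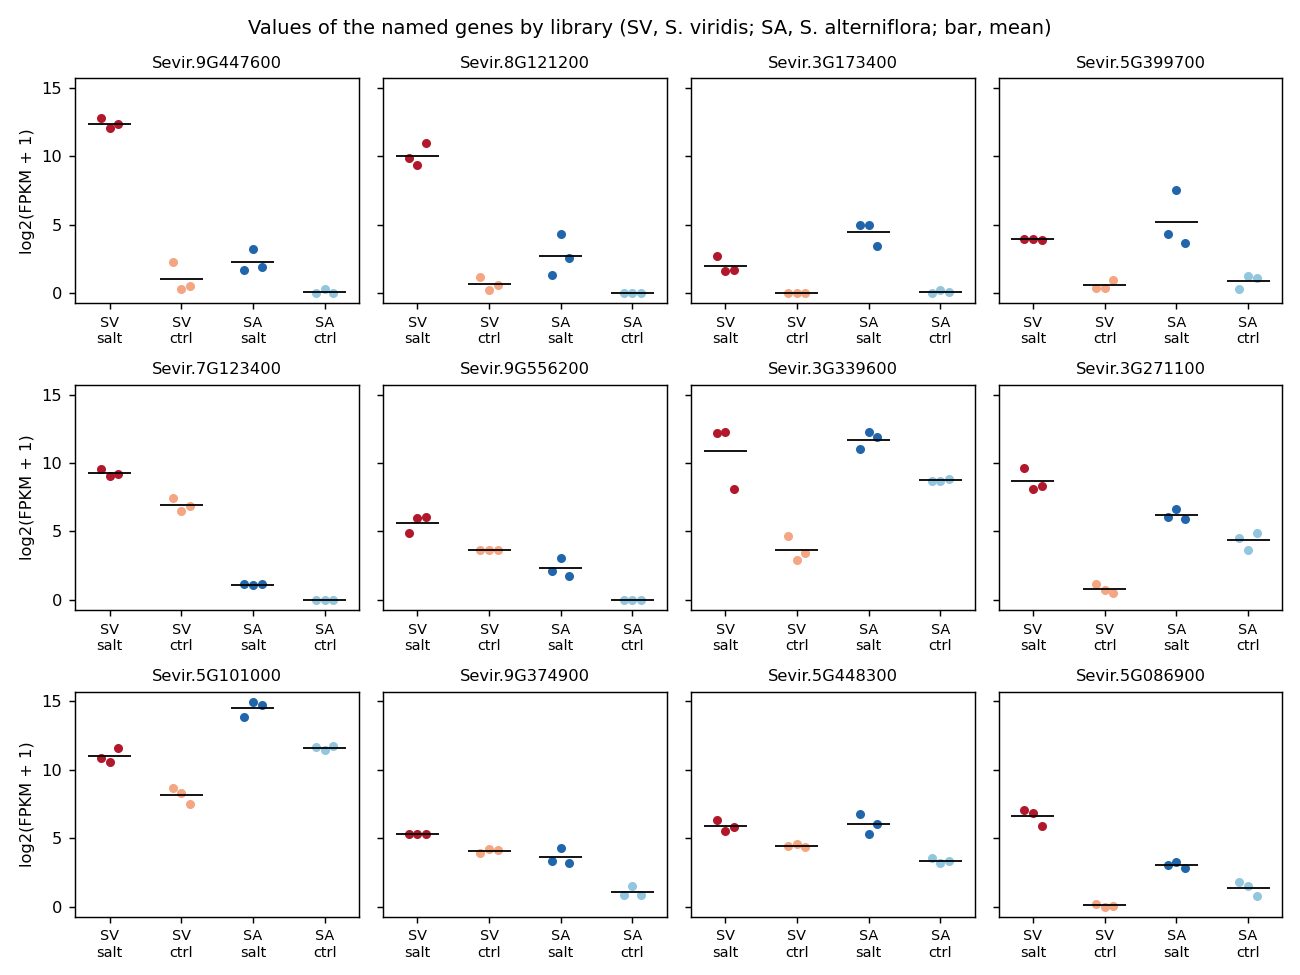
Values of the 12 members named by rule, as log2(FPKM + 1), with 1 point per library and a bar at the mean of the 3 libraries of each group (SV, S. viridis; SA, S. alterniflora; ctrl, control). Sevir.9G447600 and Sevir.8G121200 reached far higher in S. viridis salt libraries than elsewhere, whereas Sevir.5G101000 was higher in S. alterniflora in both conditions.

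The rule never compared the species with each other, and the control libraries of both were tested for that. Without salt, genes higher and genes lower in S. viridis were equally many among those called, a balance that depended on the scaling. Of the 62 genes that passed the filter of a mean of 1 FPKM over the control libraries, limma called 48, or 77.4%, with 24 higher and 24 lower in S. viridis, beside 72.3% of tested genes called, 39.5% higher and 32.8% lower. The other 20 genes averaged at most 1.69 FPKM in the controls of either species. A gene that passed the filter through one species alone had to differ, in these counts as in the background. By ranges, over all 82 genes, 28 lay wholly higher and 33 wholly lower in S. viridis controls, and 21 overlapped, beside 35.5% and 35.1% of the table wholly higher and lower. The median difference was -0.16 (log2) over the 82 genes and -0.05 over all genes. Median centring of the libraries gave 20 higher and 32 lower calls among 62 members tested, beside 3989 higher and 5065 lower of 12134 tested genes. Upper quartile scaling gave 22 higher and 32 lower among 64 members tested, beside 4140 higher and 4883 lower of 12254 tested genes. The calls of the whole table thus tipped the same way. The median difference over the members tested was -0.18 as deposited, -0.67 with upper quartile scaling and -0.57 with median centring. Over all tested genes it was 0.16 as deposited, -0.17 with upper quartile scaling and -0.23 with median centring.

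Under salt most of the species differences called were higher in S. viridis. Limma called 51 of 82 genes, or 62.2%, with 42 higher and 9 lower in S. viridis, beside 61.8% of tested genes called, 31.9% higher and 29.9% lower. The share called was thus near the background, while 51.2% of the 82 genes were called higher in S. viridis and 11% lower. By ranges, 42 genes lay wholly higher and 11 wholly lower in S. viridis salt libraries, and 29 overlapped, beside 30.1% and 33.2% of the table. The median difference was 1.45 (log2) over the 82 genes and -0.16 over all genes. Upper quartile scaling gave 38 higher and 10 lower, beside 3441 higher and 4452 lower of 12434 tested genes. It moved the median of all tested genes from 0.02 to -0.29. The rule fixed that both salt levels exceed their controls, and the larger S. viridis effects described above enter this contrast. That 42 and 9 are divided unlike the 24 and 24 in controls was not tested separately.

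**Figure D4:**
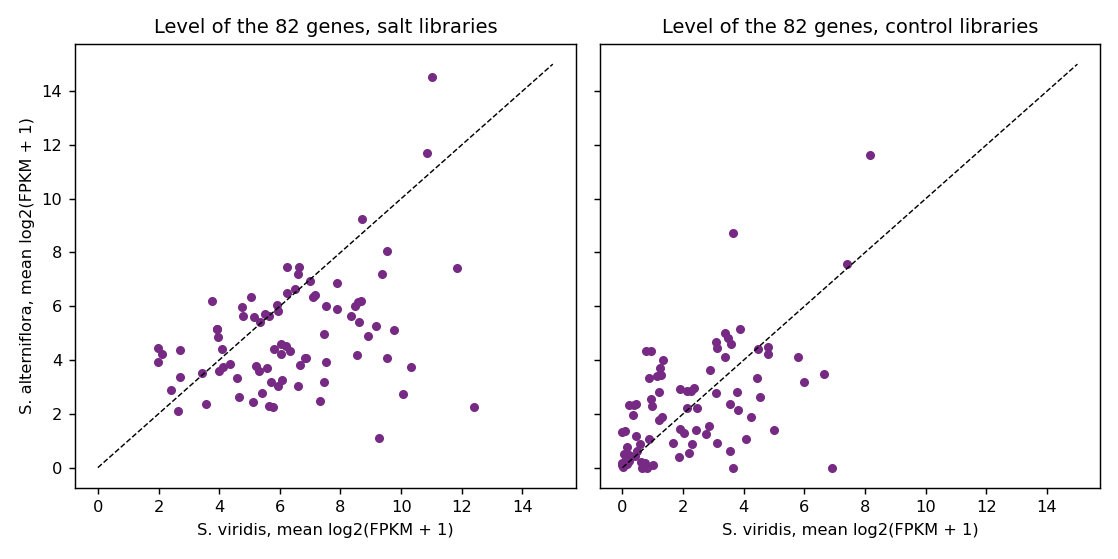
Mean log2(FPKM + 1) of each of the 82 genes in S. viridis (x axis) and S. alterniflora (y axis), in salt libraries (left) and control libraries (right), with a dashed line of equal levels. In salt libraries 55 genes lie below the line, higher in S. viridis, and in controls 35 do.

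Of the genes called higher in S. viridis controls, 19 were also called higher there under salt and 5 were not called. Of those called lower in S. viridis controls, 6 were also called lower under salt, 13 were not called and 5 were called higher. Of the genes not called in controls, 8 were called higher under salt, and of those not tested there, 10 higher and 3 lower. For the members tested, the median residual SD was 0.66 (log2) under salt and 0.36 in controls, and a call can be lost through such spread alone. The same crossing was not computed over the whole table, so nothing is read from these counts. The 5 genes called lower in S. viridis controls and higher there under salt changed their order between the grasses. They are named after their values were seen. Genes not tested in controls could not enter this set, even where their order changed. An example is Sevir.5G086900, at 0 to 0.16 FPKM in S. viridis controls against 0.72 to 2.51 FPKM in S. alterniflora controls. Under salt it had 58.17 to 130.32 FPKM against 6.13 to 8.46 FPKM. Sevir.1G271800 had 5150.05, 3213.85 and 2955.67 FPKM in S. viridis salt libraries, against 129.69, 401.14 and 97.45 FPKM in S. alterniflora salt libraries. In controls it had 10.87, 7.59 and 12.5 FPKM in S. viridis, against 25.22, 28.35 and 27.69 FPKM in S. alterniflora. In neither condition did the species overlap. The difference, S. viridis minus S. alterniflora, was 4.40 ± 0.58 under salt (log2 ± SE, limma adjusted p = 0.000403) and -1.33 ± 0.21 in controls (limma adjusted p = 0.000877). The 5 genes were chosen by these calls, so their p-values, here and in the next paragraph, are descriptions.

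Sevir.3G271100 showed the same exchange at lower levels. It had 803.61, 267.44 and 319.12 FPKM in S. viridis salt libraries, against 65.96, 100.33 and 58.52 FPKM in S. alterniflora salt libraries. In controls it had 1.17, 0.64 and 0.43 FPKM in S. viridis, against 22.27, 11.19 and 28.01 FPKM in S. alterniflora. Its difference was 2.47 ± 0.48 under salt (limma adjusted p = 0.00278) and -3.55 ± 0.35 in controls (limma adjusted p = 8.73e-05). The other genes of this kind were Sevir.2G163700, with 2.19 under salt and -1.58 in controls, Sevir.4G148600, with 2.84 and -1.59, and Sevir.9G463500, with 1.52 and -1.62 (log2). The control call of Sevir.9G463500 had an adjusted p of 0.0369 in limma, and was lost when any of the 3 S. viridis controls or S. alterniflora control A or B was left out.

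The largest species differences belonged to genes nearly absent from one grass or abundant in the other. Sevir.7G123400 had 741.85, 520.41 and 600.42 FPKM in S. viridis salt libraries, against 1.17, 1.07 and 1.2 FPKM in S. alterniflora salt libraries. In controls it had 169.69, 86.94 and 114.95 FPKM in S. viridis and was listed at 0 in all S. alterniflora libraries. Its difference under salt was 8.16 ± 0.28 (log2 ± SE, limma adjusted p = 3.38e-06). Its S. alterniflora values lay just over what the rule requires, with a ratio of 2.07. Sevir.9G447600 differed most under salt, by 10.14 ± 0.47 (limma adjusted p = 6.84e-06), with the values given above. Sevir.9G556200 was higher in S. viridis too, with 28.57, 61.21 and 64.66 FPKM against 3.4, 7.28 and 2.34 FPKM under salt, and 11.52, 11.54 and 11.29 FPKM in S. viridis controls against listed zeros in S. alterniflora.

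The 2 genes with the highest mean over all libraries were lower in S. viridis controls, and 1 of them also under salt. Sevir.5G101000 had 1843.55, 1529.35 and 3085.03 FPKM in S. viridis salt libraries, against 15241.2, 31523.89 and 27432.28 FPKM in S. alterniflora salt libraries. In controls it had 398.91, 319.84 and 179.57 FPKM in S. viridis, against 3272.81, 2801.81 and 3365.24 FPKM in S. alterniflora. The species did not overlap in either condition, with differences of -3.52 ± 0.52 under salt (log2 ± SE, limma adjusted p = 0.000728) and -3.46 ± 0.31 in controls (limma adjusted p = 5.69e-05). Its salt effects were close to each other, at 2.85 ± 0.43 in S. viridis and 2.91 ± 0.32 in S. alterniflora. The species thus kept their distance while both levels were higher under salt.

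Sevir.3G339600 had 4670.26, 4968.87 and 278.53 FPKM in S. viridis salt libraries, against 2097.85, 4815.97 and 3737.84 FPKM in S. alterniflora salt libraries. In controls it had 24.15, 6.52 and 9.56 FPKM in S. viridis, against 400.56, 414.48 and 450.94 FPKM in S. alterniflora. Its difference was -5.07 ± 0.42 in controls (log2 ± SE, limma adjusted p = 3.91e-05) and -0.85 ± 1.08 under salt (limma adjusted p = 0.513). Under salt the species overlapped, with S. viridis library C far below A and B.

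As a share of all FPKM, the 82 genes held 7.60%, 4.84% and 4.55% in S. viridis salt libraries A, B and C, against 0.235%, 0.188% and 0.173% in controls. In S. alterniflora they held 2.82%, 5.89% and 4.95% under salt, against 0.559%, 0.592% and 0.495% in controls. Most of the S. alterniflora share was Sevir.5G101000. Without it the remaining 81 genes held 0.760%, 1.45% and 1.10% under salt, against 0.139%, 0.172% and 0.128% in controls. In S. viridis they held 7.24%, 4.55% and 3.98% under salt without that gene, against 0.171%, 0.136% and 0.145% in controls.

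Salt libraries of a group differed in how high these genes were. The rule used the lowest salt library of each gene and did not fix which library was highest. In S. viridis library A was the highest salt library for 53 of 82 genes, or 64.6%, beside 19.8% of the 10925 genes that averaged at least 1 FPKM under salt. Library A stood 0.62 (log2, median) above the mean of the other salt libraries for the 82 genes, and -0.21 over those 10925 genes. Library C, the highest for 53.9% of those genes, was the highest for 18.3% of the 82. Whether genes meeting the rule in 1 species only have the same order of libraries was not tested. In S. alterniflora library B was the highest salt library for 45 genes, or 54.9%, beside 36.1% of 11425 genes, and library A was the highest for 13.4%, beside 32.6%.

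The highest salt library held at least 2 times the lowest for 44 of the 82 genes in S. viridis and for 42 in S. alterniflora, with median ratios of 2.23 and 2.06. The widest ratios were 17.8 for Sevir.3G339600 in S. viridis and 20.6 for Sevir.7G144000 in S. alterniflora. The median SD between libraries was 0.61 (log2) in S. viridis under salt, against 0.32 in its controls over the 54 genes that averaged at least 1 FPKM there. It was 0.53 in S. alterniflora under salt, against 0.37 in its controls over 57 genes. Over all genes averaging at least 1 FPKM in a group, these SDs were 0.43 under salt and 0.15 in controls in S. viridis, and 0.42 under salt and 0.35 in controls in S. alterniflora.

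**Figure D5:**
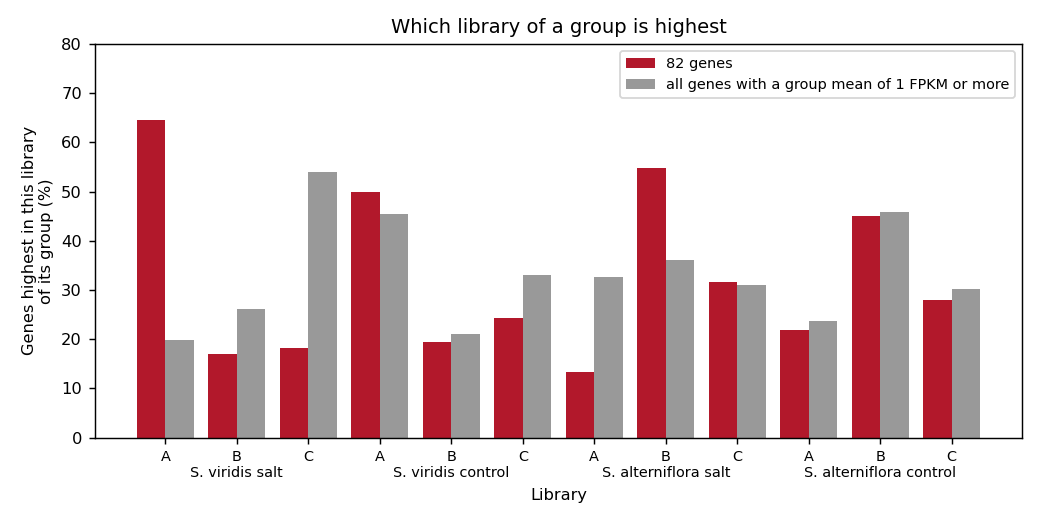
Percentage of genes for which a library (x axis) was the highest of the 3 in its group, for the 82 genes (red) and for all genes with a group mean of 1 FPKM or more (grey). The 82 genes were highest in S. viridis salt library A in 64.6% of cases, against 19.8% of all such genes, and in S. alterniflora salt library B in 54.9%, against 36.1%.

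Genes that met the rule in 1 species only show what the second condition removed. The 1243 genes meeting it in S. viridis only had a median of 37.7 FPKM under salt in that species, against 3.59 FPKM in controls, and a median salt effect of 2.59 (log2), beside 3.37 for the 82 genes. In S. alterniflora their medians were 6.10 FPKM under salt and 4.04 FPKM in controls. For 305 of them, or 24.5%, every S. alterniflora salt library exceeded every control, without reaching the 2 times that the rule asks. The share of the whole table with such an order was not computed, so nothing is read from this count. The 134 genes meeting it in S. alterniflora only had a median of 20.2 FPKM under salt there, against 2.33 FPKM in controls. Their median effect in that species was 2.34, beside 2.52 for the 82 genes. In S. viridis their medians were 3.24 FPKM under salt and 2.03 FPKM in controls.

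The IDs place the genes on all 9 chromosomes of Setaria, taking the number before the letter G as the chromosome, as this ID scheme does. Members were most frequent among IDs numbered 3, with 16 genes or 0.836% of those in the table, and 5, with 18 genes or 0.791%. They were least frequent among IDs numbered 6, with 3 genes or 0.299%, beside 0.539% over the whole table. The 3 genes numbered 6 were Sevir.6G165500, Sevir.6G236800 and Sevir.6G250100. No 2 members stood next to each other in the order of the table's IDs. The closest were Sevir.5G287400 and Sevir.5G288200, 4 places apart.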

How the data were processed

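RNA of mature leaves was extracted with a PureLink kit and sequenced in paired-end mode on an Illumina platform, per the labels' protocols. What the authors deposited is 1 table of FPKM, with a row for each of 15218 gene IDs and a column for each of 12 libraries, per the file headers. The submitters' processing notes list RSEM and edgeR, with no version and no word on their use. The aligner, reference, build and filters, and the assignment of S. alterniflora reads to Setaria IDs, were not given in the sources used here. Reads of divergent genes or near-identical copies may therefore be misplaced. Headings were matched to groups, not to single samples, and 0 columns were left out. No columns were identical, and Spearman correlations within groups were 0.854 to 0.989.

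In low values, the ratio of 2 libraries peaked sharply (2 times or more above nearby bins) in all 15 pairs of S. alterniflora libraries, at 0.933 to 1.23. It did so in 9 of 15 pairs of S. viridis, at 0.507 to 0.986. Whether these peaks are steps of 1 read was not tested, and read counts were not derived from them.

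FPKM is no count, so log2(FPKM + 1) was fitted with limma 3.58.1 in R 4.3.3 (eBayes with trend, two-sided, Benjamini-Hochberg adjustment over all tested genes, threshold 0.05), for genes averaging 1 FPKM or more in a fit. Species were compared in the 6 salt and in the 6 control libraries, salt effects in the 6 libraries of each species, and their difference over all 12. Each fit was also run on values simulated with independent, normal spread around the gene means. Such values could not test the scaling between species or whether libraries were technical replicates. Members and lists were chosen with earlier results of these data known. Named genes, up to 2 each way per comparison, are those with the largest salt effects, the largest called species differences and differences of effects, the highest means, and those nearest the threshold. Other genes were named after their values were seen. Summaries were made in Python 3.11.15 with pandas 2.3.3, and plots with matplotlib 3.10.9. The processing was varied by adding 0.1 in place of 1, by filtering at 5 FPKM or not at all, by upper quartile scaling, median centring, no trend, 1 fit over all 12 libraries, each library left out, and other folds in the rule.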

Additional observations from a re-analysis of the deposited data

Results flagged for a closer look

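By the limma test of the difference, the salt effect differed between the grasses for 33 of 82 genes, beside 24.2% of tested genes. The rule used the contrasts behind this difference, so the values are descriptions. Of the genes named by rule, the difference, S. viridis minus S. alterniflora, was 9.24 for Sevir.9G447600, 6.66 for Sevir.8G121200, 6.03 for Sevir.3G271100, 4.85 for Sevir.5G086900, 4.22 for Sevir.3G339600 and 1.25 for Sevir.7G123400 (log2). It was -2.40 for Sevir.3G173400 and -1.31 for Sevir.9G374900. Where controls were listed at 0, the value depends on the 1 added to each FPKM. This was so in S. viridis for Sevir.3G173400 and in S. alterniflora for Sevir.8G121200 and Sevir.7G123400. Controls near 0 bring the same dependence, as for Sevir.9G447600 in S. alterniflora (0 to 0.23 FPKM). Another such case was Sevir.5G086900 in S. viridis (0 to 0.16 FPKM). Groups of 3 libraries were not searched for outlying samples.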

How the results depend on the processing

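The number of genes meeting the rule was 180 at 1.5 times, 32 at 3 times, 14 at 4 times and 133 with 0.1 added in place of 1. It was 73 with upper quartile scaling, and 83 to 144 when single libraries were left out, the highest without S. alterniflora salt library A (133 without its control library B). All 82 genes were among those found at 1.5 times, with 0.1 added and without any single library. The form of the rule fixes this in advance, so it shows no stability of the list. Members called for the species difference in controls numbered 30 with a filter at 5 FPKM, where 37 were tested. Members called for the S. alterniflora salt effect numbered 0 to 46 when single libraries were left out, and 0 without control library A, where limma called 0 genes at all and 1099 had an unadjusted p under 0.05. The other counts of members called stayed within 1.5 times of the values given. The median species difference in controls over the members tested was -0.18, -0.67 with upper quartile scaling, -0.57 with median centring and -0.53 without S. viridis control library A. The difference of salt effects lost its call for Sevir.3G173400 with a pseudocount of 0.1 (adjusted p = 0.0829), and for Sevir.9G374900 in 11 settings, among them no filter (adjusted p = 0.0539) and median centring (adjusted p = 0.0785). The cause was not tested. The median S. viridis salt effect over the members was 4.28 (log2) with a pseudocount of 0.1, and 3.37 with 1. No median over the members, and no value recomputed for a gene named by rule, reversed its direction under these settings. Not every member was checked in this way. The median species difference of all tested genes did change sign with upper quartile scaling, with median centring and with no filter. It did so in controls and under salt, and under salt also without S. viridis salt library C (-0.14). No paired analysis was possible because the headings carry letters and not the replicate numbers of the labels. FPKM keeps no depth, so the counting error of low values could not be given.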
